A study of Homo sapiens with 18 samples.

Results

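The 10 genes CD40, TNFRSF8, TNFRSF9, TNFRSF13B, TNFRSF13C, FAS, TNFRSF1A, TNFRSF1B, LTBR and TNFRSF14 encode receptors of the TNF receptor superfamily that are known on B cells. They were taken by their symbols from a table of 56609 gene symbols, and each of the 10 symbols was found there once and had enough reads for testing. RNA was sequenced from the chronic lymphocytic leukemia (CLL) cell lines HG3, MEC2 and PCL12, each with 3 samples stimulated for 4 h with 2.5 μg/mL CpG-ODN2006 and 3 unstimulated samples, which gave 18 libraries in 6 groups. CpG-ODN2006 is a synthetic DNA with unmethylated CpG motifs that activates TLR9, an endosomal receptor for microbial DNA. All 3 lines carry Epstein-Barr virus and, by the study's description, MEC2 has mutated IGHV genes while HG3 and PCL12 have unmutated IGHV genes. Each line stands for 1 patient's leukemia, and no source says whether the replicates of a line were separate cultures, so that P values describe only the spread between these samples, which may be technical.

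Receptors of this superfamily bind trimeric ligands of the TNF family through cysteine-rich repeats outside the cell. CD40, TNFRSF8 (CD30) and TNFRSF9 (4-1BB) recruit TRAF adaptor proteins and carry costimulatory signals, and CD40 is the receptor through which T cells help B cells in lymphoid tissue. TNFRSF13B (TACI) and TNFRSF13C (the BAFF receptor) bind the survival factors BAFF and, for TACI, APRIL. FAS and TNFRSF1A (TNF receptor 1) hold a death domain and can start apoptosis, whereas TNFRSF1B (TNF receptor 2), LTBR (the lymphotoxin β receptor) and TNFRSF14 (HVEM) lack it. Many of them activate NF-κB, and several of their genes are NF-κB targets.

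Of the 10 genes, 8 had an entry among the RefSeq promoter windows of build GRCh38.p14, which reach from 250 bases before to 50 bases after a start site, and CD40 and TNFRSF13C had none. FAS had 3 windows, so that 10 windows were searched on both strands for the κB consensus, taken as 3 G, a purine, 2 bases of any kind, 2 pyrimidines and 2 C. It was found for 3 genes, TNFRSF9, FAS (in 1 of its 3 windows) and TNFRSF14, and 11.27% of 35116 windows of that length hold it. The 1 match in FAS fits the consensus on both strands. The windows of TNFRSF9 and TNFRSF14 are shown because they held 2 and 3 overlapping κB matches, printed in capitals, the first of which begins 74 bases before the start site in TNFRSF9 and 86 bases before it in TNFRSF14. Those of TNFRSF1A and TNFRSF1B are shown because these genes, which encode the receptors for TNF itself, lay in opposite orders between the lines. They span chr1:7940790-7941089 (minus strand), chr1:2556121-2556420 (plus strand), chr12:6342027-6342326 (minus strand) and chr1:12166741-12167040 (plus strand), are given 5′ to 3′ on the strand of the gene, and hold 52.3%, 60.3%, 55.7% and 72.0% G and C.
TNFRSF9: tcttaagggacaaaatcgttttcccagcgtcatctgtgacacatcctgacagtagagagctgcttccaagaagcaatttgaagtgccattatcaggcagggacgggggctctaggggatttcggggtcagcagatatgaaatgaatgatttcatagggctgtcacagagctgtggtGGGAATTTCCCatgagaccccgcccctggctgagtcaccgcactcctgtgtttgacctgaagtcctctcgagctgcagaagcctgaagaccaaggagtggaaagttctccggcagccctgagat
TNFRSF14: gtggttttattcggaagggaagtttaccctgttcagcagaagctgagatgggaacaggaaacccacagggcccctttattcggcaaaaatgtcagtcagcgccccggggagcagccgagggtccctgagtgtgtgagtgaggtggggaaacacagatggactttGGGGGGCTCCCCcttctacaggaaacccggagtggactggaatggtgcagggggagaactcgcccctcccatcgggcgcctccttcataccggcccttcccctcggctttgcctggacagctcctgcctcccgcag
TNFRSF1A: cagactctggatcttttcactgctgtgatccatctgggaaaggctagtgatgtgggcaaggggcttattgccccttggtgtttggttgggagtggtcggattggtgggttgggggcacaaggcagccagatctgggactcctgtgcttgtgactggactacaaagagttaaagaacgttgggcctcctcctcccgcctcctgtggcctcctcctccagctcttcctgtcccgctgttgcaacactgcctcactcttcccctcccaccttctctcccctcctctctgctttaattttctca
TNFRSF1B: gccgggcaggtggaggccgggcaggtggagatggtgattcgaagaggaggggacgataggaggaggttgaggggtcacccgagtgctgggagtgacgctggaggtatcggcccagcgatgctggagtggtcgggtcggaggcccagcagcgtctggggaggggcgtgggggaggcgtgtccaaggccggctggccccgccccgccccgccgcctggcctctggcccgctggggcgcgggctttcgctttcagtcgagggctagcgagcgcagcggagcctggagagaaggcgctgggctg
The letters are the reference and were not read from these cells, and a match is a description of the letters only. The RefSeq start site lies inside the longer gene model of GENCODE by 2326 bases for TNFRSF9, 732 for TNFRSF14 and 38 for TNFRSF1A, and at its first base for TNFRSF1B. Among the windows not shown, those of FAS (36985 to 37618 bases) and LTBR (9117 bases) also lie inside.

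In GENCODE release 44, 4 of the 10 genes lie on chromosome 1 and 2 on chromosome 12. TNFRSF8 (chromosome 1, 12063303 to 12144207) and TNFRSF1B (12166991 to 12209228) are 22783 bp apart on the same strand, and TNFRSF1A (chromosome 12, 6328757 to 6342114) and LTBR (6375045 to 6391571) are 32930 bp apart on opposite strands. CD40 lies on chromosome 20 (46118271 to 46129863), FAS on chromosome 10 (88953813 to 89029605), and TNFRSF13B on chromosome 17 (16929816 to 16972118). The FAS model overlaps STAMBPL1 on the same strand by 21341 bp and ACTA2 on the opposite strand by 37527 bp, LTBR overlaps SCNN1A on the opposite strand by 2686 bp, TNFRSF13B overlaps a long noncoding RNA and the pseudogene TBC1D27P on the same strand by 5024 and 2690 bp, TNFRSF8 overlaps a long noncoding RNA on the opposite strand by 3824 bp, and TNFRSF14 overlaps its antisense gene by 1393 bp. The strand setting of the counting was not stated, so reads in these overlaps may have been lost or shared.

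Libraries held 20382943 to 67308932 counts, and a count of 0 allows up to 3 counts, or 0.0429 to 0.155 CPM (read counts scaled to library size). All 6 B-cell markers were above 1 CPM in each of the 6 groups. Of the 5 T-cell markers, CD28 was at 32.4 to 58.4 CPM in MEC2, at 17.2 to 24.5 CPM in PCL12 replicates 2 and 3 and at 0.160 to 0.458 CPM in PCL12 replicate 1. CD3E was higher in PCL12 replicate 1 (2.37 and 0.959 CPM) than in replicates 2 and 3 (at most 0.673 CPM), and the summed T-cell markers were at most 1.14 CPM in HG3. The summed markers of NK cells stayed at or below 7.96 CPM, of monocytes at or below 1.91 and of red cells at or below 0.189, whereas the stromal list reached 81.7 CPM in HG3 through COL1A1. Replicates 2 and 3 of PCL12, stimulated and unstimulated, stood apart: 45 genes typical of MEC2 there reached 29.1% to 31.3% of the MEC2 level (median of the genes), against 2.26% to 2.36% in PCL12 replicate 1, by which these genes had been chosen, and at most 14.2% in HG3. Mitochondrial transcripts took 20.2% of the counts in unstimulated replicate 2 of HG3 and 19.7% in CpG replicate 2 of MEC2, against 2.82% to 9.28% in the other libraries. NFKBIZ, an early TLR response gene, was measured to check the stimulation: it was upregulated by CpG in MEC2 (Log2FC 2.20, adjusted p = 0.0154, edgeR's quasi-likelihood test, adjusted by Benjamini and Hochberg) and had an adjusted p of 0.541 in PCL12 (Log2FC 1.71) and 1 in HG3 (Log2FC 0.66). With the replicate number as a block it was also upregulated in PCL12 (Log2FC 1.70, adjusted p = 2.56e-11), and its adjusted p in HG3 was 0.139 (Log2FC 0.73).

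Values below are CPM, the deposited counts divided by the TMM-scaled library size, and are not compared between genes, because the labels name a 3′ counting kit and gene length can then not be corrected for. The 10 genes together took 776.4 to 1317 CPM per library. LTBR was the exception in level, with 0 to 155 reads per library, while the others had at least 1.77 CPM in every library.

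**Figure D1:**
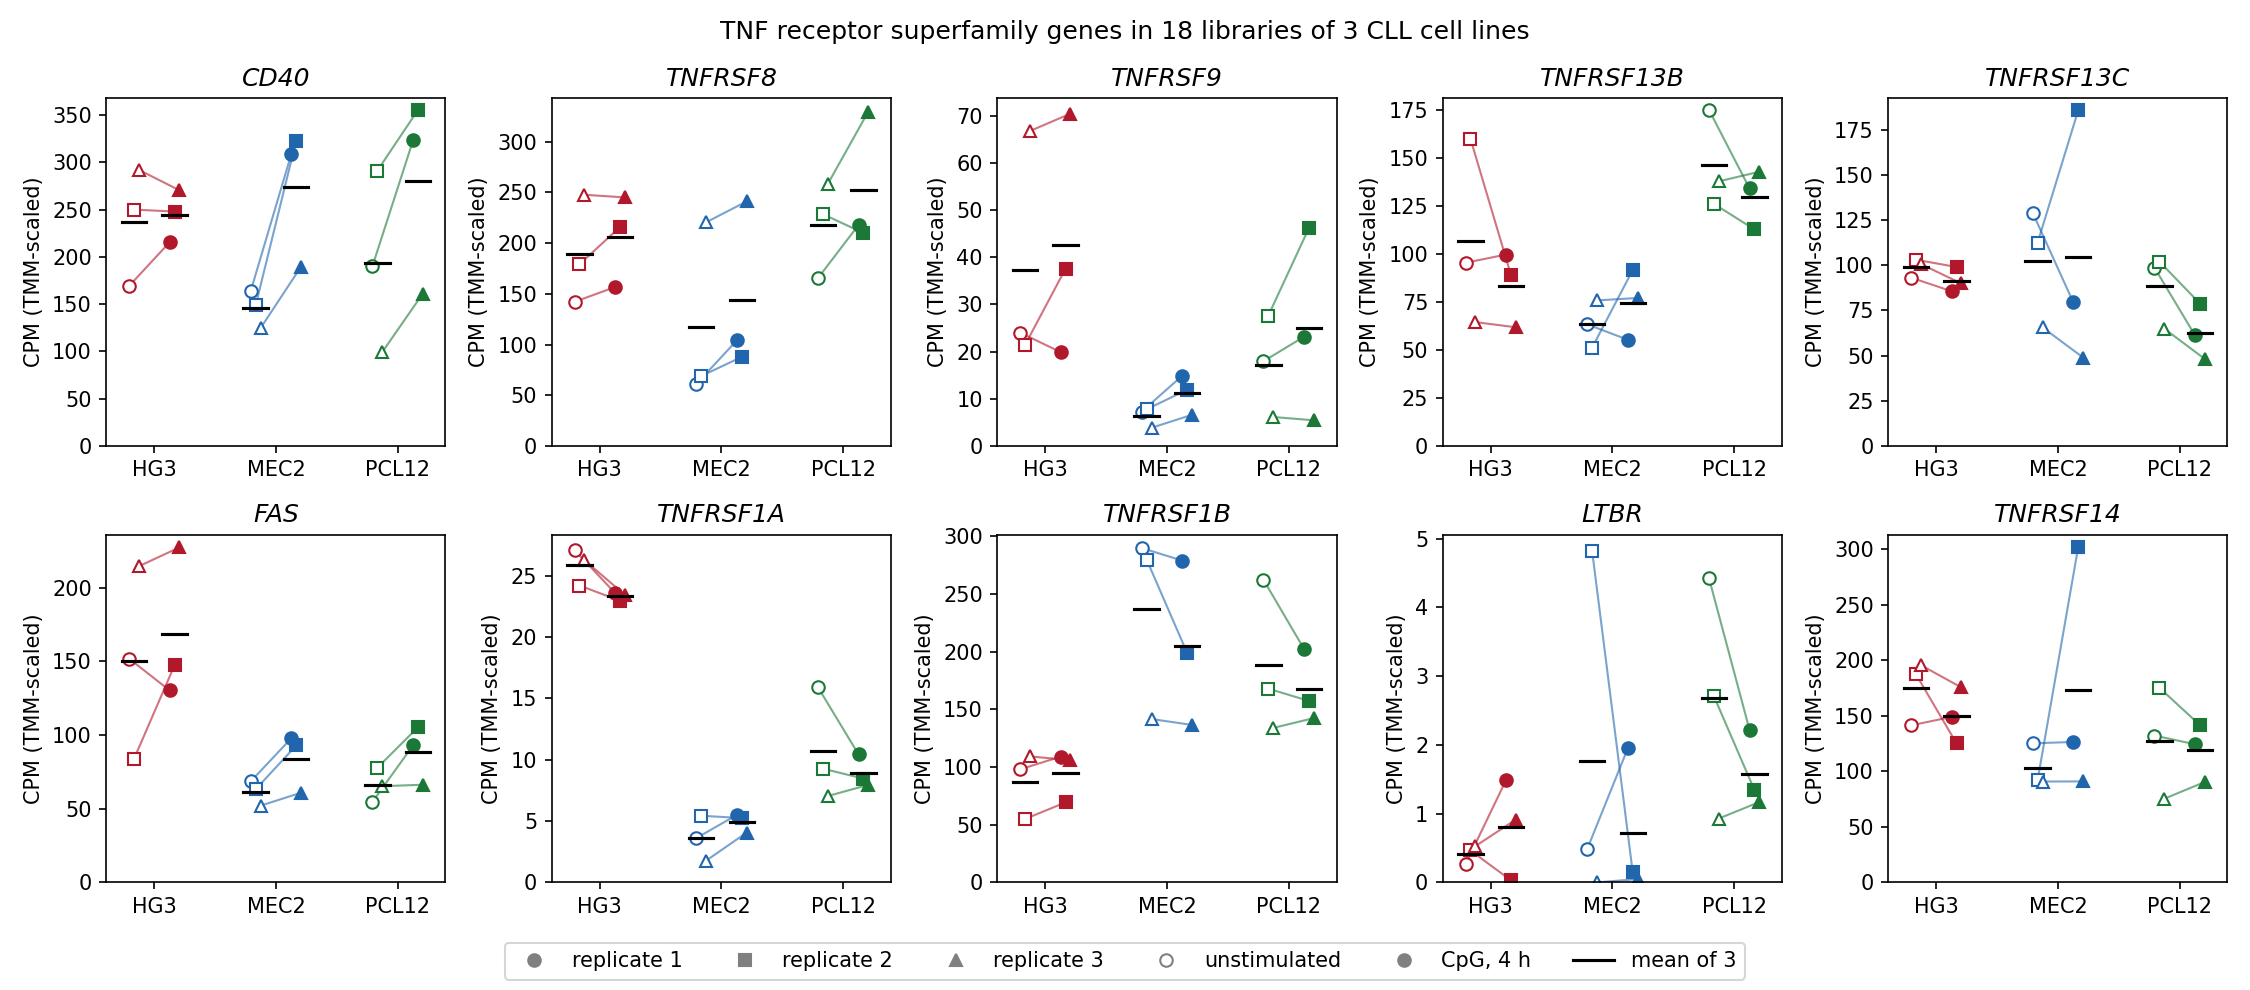
CPM (vertical axis, linear, from 0) of the 10 receptor genes in the 18 libraries, by cell line, with open symbols for unstimulated and filled symbols for CpG-stimulated samples, lines joining samples with the same replicate number and bars for the mean of 3. TNFRSF1A is high in HG3 (22.95 to 27.1 CPM) and at most 15.9 CPM elsewhere, and CD40 is higher after CpG in all 3 MEC2 pairs.

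The first question was how the unstimulated lines differ. Among the 10 genes, TNFRSF1A and FAS were lower and TNFRSF1B was higher in both MEC2 and PCL12 than in HG3, and TNFRSF13B and TNFRSF1A were higher in PCL12 than in MEC2. By edgeR's quasi-likelihood test with adjustment over 31872 genes, 1 of 10 was higher and 2 were lower in MEC2 than in HG3, beside 4.81% of all tested genes higher and 4.97% lower. For PCL12 against HG3 the counts were again 1 higher and 2 lower, beside 4.87% and 4.57% of all genes. In PCL12 against MEC2, 2 were higher and 0 lower, beside 1.53% and 0.524%, and DESeq2 and limma-voom also called 2 of 10 here, beside 4.43% and 3.10% of all genes. At an unadjusted p under 0.05, 7 of 10 genes passed for MEC2 against HG3 (21.75% of all genes), 3 for PCL12 against HG3 (21.8%) and 2 for PCL12 against MEC2 (10.98%). The median log2 difference of the 10 genes was -0.73 for MEC2 minus HG3, -0.23 for PCL12 minus HG3 and 0.51 for PCL12 minus MEC2, where the median over all tested genes was 0 in each. In bulk RNA, fewer cells that express a gene and less RNA per cell cannot be told apart.

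TNFRSF1A, the death domain receptor for TNF, showed the widest separation of the lines. The 3 unstimulated HG3 libraries held 27.1, 24.2 and 26.3 CPM, the MEC2 libraries 3.61, 5.43 and 1.77 CPM, and the PCL12 libraries 15.9, 9.27 and 7.03 CPM. HG3 was high in each library, MEC2 low in each, and PCL12 lay between them without overlap with either. MEC2 was 7.20-fold below HG3 (Log2FC -2.85, SE 0.38, adjusted p = 5.88e-06), and this call held under every alternative, with an adjusted p of at most 0.000619. PCL12 was 2.41-fold below HG3 (Log2FC -1.27, SE 0.35, adjusted p = 0.0199) and 2.99-fold above MEC2 (Log2FC 1.58, SE 0.36, adjusted p = 0.0149). Both PCL12 calls depend on single libraries, and both were lost when the 9 unstimulated libraries were fitted alone (adjusted p = 0.0766 against HG3 and 0.0833 against MEC2). Without PCL12 replicates 2 and 3, which hold transcripts typical of MEC2, the difference from HG3 was -0.68 (adjusted p = 0.668), and PCL12 was then represented by replicate 1 alone, which had the highest of the 3 values. The call against HG3 was also lost without HG3 unstimulated replicate 1 (adjusted p = 0.0546), PCL12 unstimulated replicate 2 (0.0969) or replicate 3 (0.134), in a range of 0.00294 to 0.668 over all alternatives. The call against MEC2 was lost without MEC2 unstimulated replicate 1 (0.0849) or 3 (0.101) or PCL12 unstimulated replicate 1 (0.199), in a range of 0.000657 to 0.199. The part of the MEC2 transcripts in the PCL12 value was not tested.

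FAS, the death receptor that FAS ligand engages, was also highest in HG3. Unstimulated libraries held 151.8, 83.7 and 214 CPM in HG3, 68.5, 63.2 and 52.0 CPM in MEC2, and 54.7, 77.8 and 65.3 CPM in PCL12. The HG3 values differed among themselves by more than those of the other lines, yet the lowest of them lay above every MEC2 and PCL12 value, while MEC2 and PCL12 overlapped. FAS was 2.45-fold lower in MEC2 (Log2FC -1.29, SE 0.30, adjusted p = 0.00466) and 2.28-fold lower in PCL12 (Log2FC -1.19, SE 0.30, adjusted p = 0.00966) than in HG3 by edgeR's quasi-likelihood test. Without HG3 unstimulated replicate 3, the highest library, the Log2FC was -0.94 against MEC2 (adjusted p = 0.0516) and -0.84 against PCL12 (adjusted p = 0.0959). The PCL12 call also ended without PCL12 unstimulated replicate 1 (adjusted p = 0.0533) and without PCL12 replicates 2 and 3, where the difference was no smaller (Log2FC -1.44, adjusted p = 0.107) but PCL12 held 1 library and the other groups gave the spread. Over all alternatives the adjusted p ran from 9.63e-05 to 0.0516 for MEC2 and from 0.000555 to 0.107 for PCL12. MEC2 and PCL12 were not called apart (Log2FC 0.11, SE 0.30, adjusted p = 1).

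TNFRSF1B, the TNF receptor without a death domain, went the other way. HG3 held 98.0, 54.9 and 109.2 CPM, MEC2 289.8, 279.8 and 141.6 CPM, and PCL12 262, 168 and 134 CPM in unstimulated cells. Every MEC2 and PCL12 library lay above every HG3 library, with replicate 3 the lowest in both of these lines. The gene was 2.71-fold higher in MEC2 (Log2FC 1.44, SE 0.33, adjusted p = 0.00374) and 2.15-fold higher in PCL12 (Log2FC 1.10, SE 0.32, adjusted p = 0.0282) than in HG3. The lowest value was that of the HG3 library rich in mitochondrial counts. Without it and the MEC2 CpG library of the same kind, the adjusted p was 0.0540 for MEC2 (Log2FC 1.19) and 0.179 for PCL12 (Log2FC 0.86). The PCL12 call was lost as well without HG3 unstimulated replicate 2 alone (adjusted p = 0.115) without PCL12 unstimulated replicate 1 (adjusted p = 0.184) and in the 9 unstimulated libraries alone (adjusted p = 0.0574). The ranges over all alternatives were 1.22e-05 to 0.0540 for MEC2 and 0.00127 to 0.184 for PCL12. TNFRSF1A and TNFRSF1B, both receptors for TNF, thus lay in opposite orders between HG3 and MEC2.

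TNFRSF13B, which encodes TACI, separated PCL12 from MEC2. The unstimulated PCL12 libraries held 174.9, 126.0 and 138 CPM, those of MEC2 63.3, 51.2 and 75.7 CPM, and those of HG3 95.3, 159.9 and 64.4 CPM. PCL12 and MEC2 did not overlap, and HG3 overlapped both, with its mitochondria-rich library the highest of the HG3 values. PCL12 was 2.31-fold above MEC2 (Log2FC 1.21, SE 0.29, adjusted p = 0.0219, edgeR's quasi-likelihood test). The call was lost without MEC2 unstimulated replicate 1 (adjusted p = 0.113), MEC2 unstimulated replicate 2 (0.165) or PCL12 unstimulated replicate 1 (0.159), and without PCL12 replicates 2 and 3 (Log2FC 1.49, adjusted p = 0.0661, with 1 PCL12 library whose spread is taken from the other groups) or in the 9 unstimulated libraries alone (adjusted p = 0.0720), in a range of 0.000872 to 0.165 over all alternatives. TNFRSF13B was also called higher in PCL12 than in HG3 without HG3 unstimulated replicate 2 (Log2FC 0.90, adjusted p = 0.0379) and without both mitochondria-rich libraries (0.87, adjusted p = 0.0258), and lower in MEC2 than in HG3 without HG3 unstimulated replicate 3 (-1.01, adjusted p = 0.0252). TNFRSF13C, the receptor for BAFF alone, lay at 93.1, 103 and 100.6 CPM in HG3, 128.9, 112.5 and 65.6 CPM in MEC2, and 98.6, 102.0 and 64.9 CPM in PCL12. These values overlapped throughout, and the fitted differences between the lines ranged from -0.21 to 0.05 on the log2 scale, with SE 0.34.

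Among the costimulatory receptors, none of the 3 passed the test between unstimulated lines. TNFRSF9 came nearest, with 24.02, 21.4 and 66.75 CPM in HG3, 7.28, 7.76 and 3.85 CPM in MEC2, and 17.95, 27.6 and 6.13 CPM in PCL12. MEC2 was below HG3 in every library (Log2FC -2.57, SE 0.78, adjusted p = 0.0521), PCL12 overlapped HG3, and PCL12 replicate 3 was within the MEC2 range. This difference passed with RLE size factors (adjusted p = 0.0492), filterByExpr (0.0177), limma-voom (0.0351), DESeq2 (0.000377) and in the 9 unstimulated libraries alone (0.00867), also without a low-count filter, without PCL12 replicates 2 and 3 and in 5 of 18 fits without 1 library, and it did not pass with library totals in place of TMM (0.0658) or without the 2 mitochondria-rich libraries (0.0800). Without a low-count filter TNFRSF9 was also called between PCL12 and HG3 (Log2FC -1.11, adjusted p = 0.0112) and between PCL12 and MEC2 (1.48, adjusted p = 0.000677). CD40 lay at 169, 250.0 and 292 CPM in HG3, 164, 149 and 125 CPM in MEC2, and 190.3, 291 and 99.2 CPM in PCL12. HG3 was above MEC2 in each library (Log2FC for MEC2 minus HG3 -0.70, SE 0.33, adjusted p = 0.207), and PCL12 reached from below the lowest MEC2 library to near the highest HG3 library. TNFRSF8 lay at 142, 179 and 248 CPM in HG3, 61.0, 68.9 and 220.5 CPM in MEC2, and 166, 229 and 258 CPM in PCL12. Replicate 3 of MEC2 stood far above the other 2 for this gene, and its log2 differences between lines had adjusted p values from 0.351 to 0.875. Without that library TNFRSF8 was called lower in MEC2 than in HG3 (Log2FC -1.55, adjusted p = 0.00786) and higher in PCL12 than in MEC2 (Log2FC 1.74, adjusted p = 0.0115), and the latter call was also made without a low-count filter (Log2FC 0.91, adjusted p = 0.0367).

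LTBR and TNFRSF14 completed the set. TNFRSF14, a receptor for LIGHT and BTLA, was at 141, 187 and 195.5 CPM in HG3, 125, 92.2 and 90.8 CPM in MEC2, and 132, 175 and 75.3 CPM in PCL12. All HG3 values lay above all MEC2 values, with a Log2FC of -0.77 (SE 0.34) for MEC2 minus HG3 and an adjusted p of 0.184. LTBR had 12, 9 and 20 reads in the unstimulated HG3 libraries, 17, 118 and 0 in MEC2, and 138, 76 and 40 in PCL12, or 0.264, 0.464 and 0.526 CPM, 0.487, 4.82 and 0 CPM, and 4.42, 2.71 and 0.929 CPM. The count of 0 in MEC2 replicate 3 allows up to 0.0855 CPM, and the MEC2 libraries thus spanned the values of both other lines. PCL12 was above HG3 in every library, with a Log2FC of 2.68, an SE of 1.44 and an adjusted p of 0.285, and it was called in the fit without a low-count filter alone (Log2FC 2.69, adjusted p = 0.0265).

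**Figure D2:**
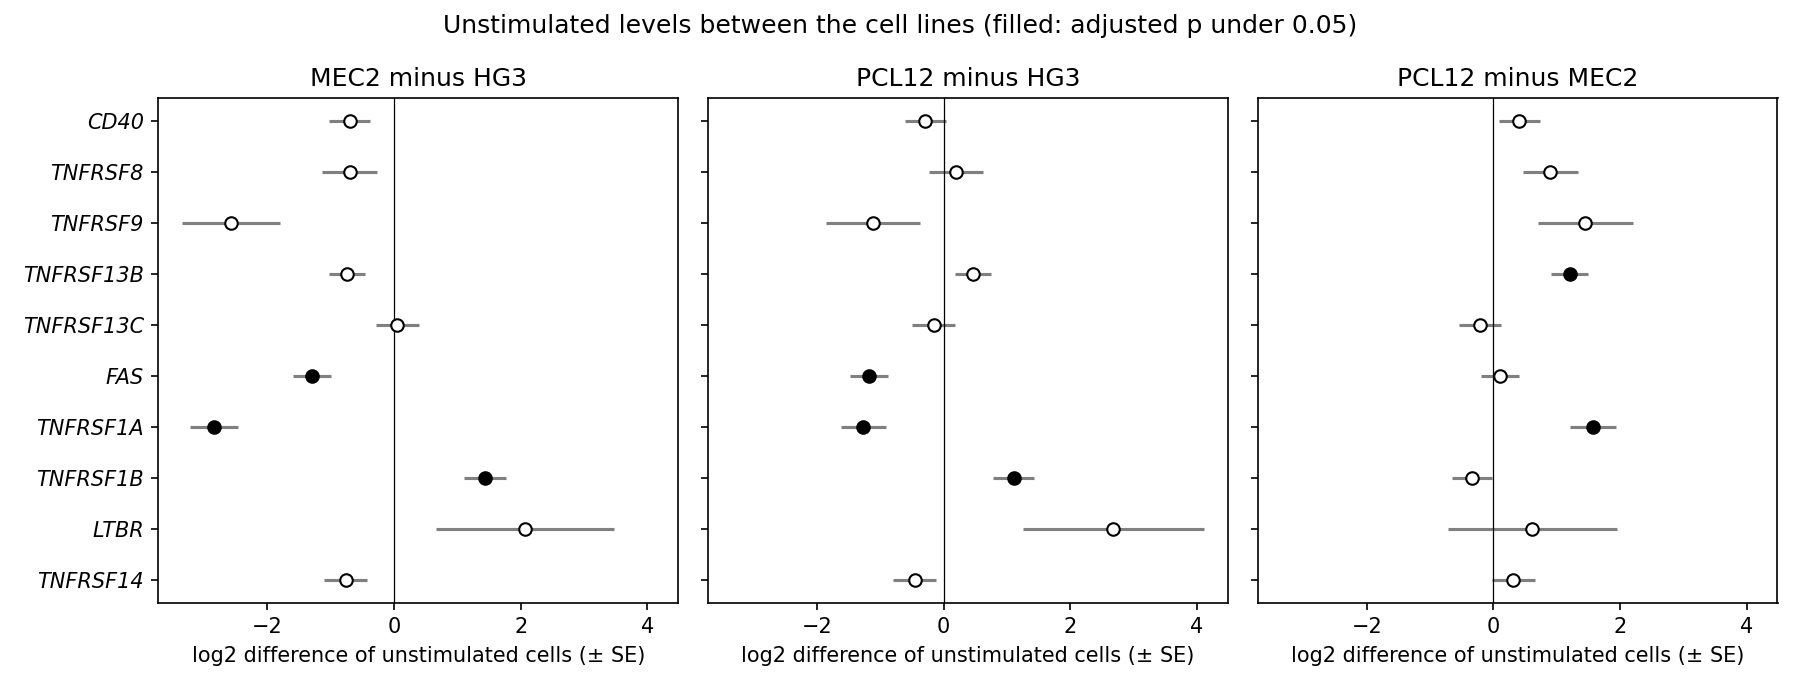
Log2 differences between unstimulated cell lines (horizontal axis) for the 10 genes with SE bars, from the edgeR fit of all 6 groups; filled points have an adjusted p under 0.05. TNFRSF1A lies at -2.85 in MEC2 minus HG3, TNFRSF1B at 1.44 in the same panel, and the bars of LTBR are the widest (SE 1.33 to 1.44).

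The second question was whether 4 h of CpG changed these receptors. With the 6 group means alone, 0 of 10 genes passed an adjusted p of 0.05 by edgeR's quasi-likelihood test for HG3 (0.00314% of all tested genes did), for MEC2 (0.00314%) or for PCL12 (0%), and on average over the lines it was 0 as well (0.00941%). At an unadjusted p under 0.05 the counts were 0 for HG3 (3.73% of all genes) and for PCL12 (2.09%), 2 for MEC2 (CD40 and TNFRSF14, beside 2.46%) and 1 on average (CD40, beside 4.04%), and DESeq2 and limma-voom called 0 in each. No CpG change was called as different between lines: MEC2 minus HG3 (0% of all genes), PCL12 minus HG3 (0.00314%) and PCL12 minus MEC2 (0%) gave 0 of 10 each, also at an unadjusted p under 0.05 (4.10%, 4.16% and 3.23% of all genes) and with DESeq2 and limma-voom. The description of the series states that every replicate held a stimulated and an unstimulated sample, so each pair was also compared within itself. With the replicate number as a block, CD40 was the only 1 of the 10 genes called, in MEC2 (0.333% of all genes) and on average (0.555%), while HG3 (0.135%), PCL12 (0.0471%) and the differences MEC2 minus HG3 (0.141%), PCL12 minus HG3 (0.069%) and PCL12 minus MEC2 (0.0126%) gave 0. At an unadjusted p under 0.05 the fit with the block passed 0 of 10 genes for HG3 (3.59% of all genes), 5 for MEC2 (3.41%), 3 for PCL12 (1.69%) and 5 on average (4.54%), and for the differences 2 (3.53%), 0 (2.39%) and 1 (1.36%).

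CD40 was measured in MEC2 at 309, 323 and 189.7 CPM after CpG and at 164, 149 and 125 CPM without it. The groups did not overlap, and the log2 ratios of the 3 pairs were 0.91, 1.12 and 0.61. In PCL12 the levels were 323, 355 and 161 CPM after CpG and 190.3, 291 and 99.2 CPM without it, with pair ratios of 0.76, 0.29 and 0.70. These groups overlapped although each pair was higher after CpG, with replicate 3 low in both conditions. In HG3 the levels were 215.5, 248 and 270.5 CPM after CpG and 169, 250.0 and 292 CPM without it, with ratios of 0.35, -0.01 and -0.11. Of the 9 pairs, 2 were not higher after CpG, both of HG3, and the unstimulated mean of HG3 was the highest of the 3 lines. The fit without a block gave CD40 a Log2FC of 0.91 (SE 0.33, P value 0.00996, adjusted p = 1) in MEC2 and 0.50 (SE 0.19, P value 0.0139, adjusted p = 1) on average. With the replicate block, edgeR's quasi-likelihood test gave 0.88 (SE 0.21, adjusted p = 0.0103) in MEC2 and 0.51 (SE 0.12, adjusted p = 0.00621) on average, and limma-voom with the same block gave adjusted p values of 0.0627 and 0.0211. The SE of edgeR's block fit hardly followed the pairs of a gene. It was 0.21 for TNFRSF14 in MEC2, whose pair ratios had an SD of 0.98, and 0.20 for TNFRSF13C in HG3 (SD 0.053). Its P values thus rest more on a spread shared between genes than on the pairs of CD40 itself. Over all alternatives, the adjusted p was between 1.15e-05 and 1 for MEC2 and between 1.19e-08 and 1 on average. The CpG change was not shown to differ between lines: MEC2 minus HG3 was 0.87 (SE 0.46, adjusted p = 1), and 0.81 (SE 0.29, adjusted p = 0.689) with the block.

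COL1A1, a collagen gene of the stromal list named here after its values were seen, moved with CD40 in MEC2: it was at 16.8, 37.95 and 19.45 CPM after CpG and at 9.80, 9.96 and 11.4 CPM without it (Log2FC 1.16 with the block, adjusted p = 0.00218). The other 2 stromal markers, COL1A2 and DCN, had at most 0.401 CPM in any MEC2 library, and the part of the stromal signal in the CD40 value was not tested.

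The block result was repeated without the libraries that stood apart. Without PCL12 pairs 2 and 3, CD40 had an adjusted p of 0.0566 in MEC2 (Log2FC 0.90) and 0.138 on average (Log2FC 0.58), so that neither call was kept. Without the 2 pairs that hold a mitochondria-rich library, it had an adjusted p of 1.15e-05 in MEC2 (Log2FC 0.77) and was also called in PCL12 (Log2FC 0.58, adjusted p = 8.86e-05). In that fit, 2 of 10 genes were called in MEC2 (0.578% of all genes), 2 in PCL12 (0.611%) and 3 on average (1.35%). The other genes were TNFRSF9, which rose in MEC2 (Log2FC 0.93, SE 0.22, adjusted p = 0.00671) and on average (0.39, adjusted p = 0.0417), and TNFRSF13C, which fell in PCL12 (-0.50, SE 0.13, adjusted p = 0.0147) and on average (-0.39, adjusted p = 0.000540).

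TNFRSF9, whose product costimulates lymphocytes, differed more between pairs than within them. MEC2 libraries held 14.9, 11.9 and 6.596 CPM after CpG and 7.28, 7.76 and 3.85 CPM without it, with pair ratios of 1.03, 0.62 and 0.77 on the log2 scale. PCL12 libraries held 23.15, 46.2 and 5.43 CPM after CpG and 17.95, 27.6 and 6.13 CPM without it, with ratios of 0.37, 0.74 and -0.17. The pairs of a line differed from each other by up to 2.62 on the log2 scale in PCL12, where the mean CpG ratio was 0.31. In HG3, with 19.9, 37.6 and 70.4 CPM after CpG and 24.02, 21.4 and 66.75 CPM without it, the third pair was high in both conditions and the ratios were -0.27, 0.81 and 0.08. The ratio of 0.81 came from the pair with the mitochondria-rich unstimulated library. Over the 10 genes, the distance between the highest and the lowest pair was larger than the mean CpG ratio for 9 genes of HG3, for 9 of MEC2 (the exception was CD40) and for all 10 of PCL12, beside 88.8%, 85.8% and 86.7% of all tested genes, which is near the members' counts.

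TNFRSF13C, the BAFF receptor gene, was lower after CpG in 8 of 9 pairs. HG3 held 85.6, 99.0 and 89.9 CPM after CpG and 93.1, 103 and 100.6 CPM without it, and PCL12 61.1, 78.8 and 48.1 CPM after CpG and 98.6, 102.0 and 64.9 CPM without it. The pair ratios were -0.12, -0.06 and -0.16 in HG3 and -0.69, -0.37 and -0.43 in PCL12. MEC2 held 79.4, 185.6 and 48.9 CPM after CpG and 128.9, 112.5 and 65.6 CPM without it, where the mitochondria-rich CpG library, replicate 2, gave the only higher value (0.72) beside ratios of -0.70 and -0.42. The average Log2FC was -0.19 (SE 0.19, adjusted p = 1) without and -0.25 (SE 0.12, adjusted p = 0.988) with the block in all libraries. TNFRSF14 had the same library standing apart: MEC2 CpG replicate 2 reached 302 CPM beside 126 and 90.9 CPM, and its pair ratio of 1.71 stood beside 0.015 and 0.0016 in the other MEC2 pairs.

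FAS was higher after CpG in 8 of 9 pairs. MEC2 went to 97.8, 92.9 and 60.8 CPM from 68.5, 63.2 and 52.0 CPM, PCL12 to 92.9, 105 and 66.2 CPM from 54.7, 77.8 and 65.3 CPM, and HG3 to 130.2, 147 and 227 CPM from 151.8, 83.7 and 214 CPM. The largest FAS ratio, 0.81, came from HG3 replicate 2, whose unstimulated library was rich in mitochondrial counts. The third pairs of HG3 and PCL12 had ratios of 0.083 and 0.022. The only pair with a lower value was the first of HG3, and the stimulated and unstimulated groups overlapped in each line. Its average Log2FC was 0.35 (SE 0.17, adjusted p = 1) and, with the block, 0.35 (SE 0.12, adjusted p = 0.257), so it was not called. TNFRSF8 was higher in all 3 MEC2 pairs (104, 87.7 and 241 CPM against 61.0, 68.9 and 220.5 CPM), with ratios of 0.77, 0.35 and 0.13.

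TNFRSF1A was slightly lower after CpG in all 3 HG3 pairs, at 23.6, 22.95 and 23.4 CPM against 27.1, 24.2 and 26.3 CPM, with ratios from -0.20 to -0.08. In MEC2 its levels were 5.499, 5.25 and 4.06 CPM after CpG against 3.61, 5.43 and 1.77 CPM, and in PCL12 10.4, 8.455 and 7.95 CPM against 15.9, 9.27 and 7.03 CPM. HG3 thus stayed above the other lines in both conditions. TNFRSF1B held 278.9, 199 and 136.5 CPM after CpG in MEC2, 202, 157 and 142 CPM in PCL12 and 109.0, 69.3 and 106 CPM in HG3, with pair ratios between -0.49 and 0.34. TNFRSF13B had pair ratios from -0.85 to 0.84, and the extremes of both genes came from pairs with a mitochondria-rich library. The LTBR ratios, which rest on few reads, ran over the widest range of the 10 genes and had no common sign.

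Over the pairs, 0 of 10 genes were higher in all 3 pairs of HG3 (7.08% of all tested genes were), 5 in MEC2 (8.58%), namely CD40, TNFRSF8, TNFRSF9, FAS and TNFRSF14, and 2 in PCL12 (7.94%), CD40 and FAS. In the other direction, 2 were lower in all 3 pairs of HG3 (7.52%), TNFRSF13C and TNFRSF1A, 1 in MEC2 (9.00%), TNFRSF1B, and 1 in PCL12 (8.29%), TNFRSF13C. These are signs of ratios and carry no test, and the TNFRSF14 ratios of MEC2 included 0.015 and 0.0016. Of the 31872 tested genes, 13991 had a mean of 1 CPM or more. The shares of all genes thus include many with fewer reads than most of the receptors. The median CpG change of the 10 genes on the log2 scale was 0.08 for HG3, 0.38 for MEC2 and -0.14 for PCL12, and the median over all genes was 0, 0 and 0.02.

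**Figure D3:**
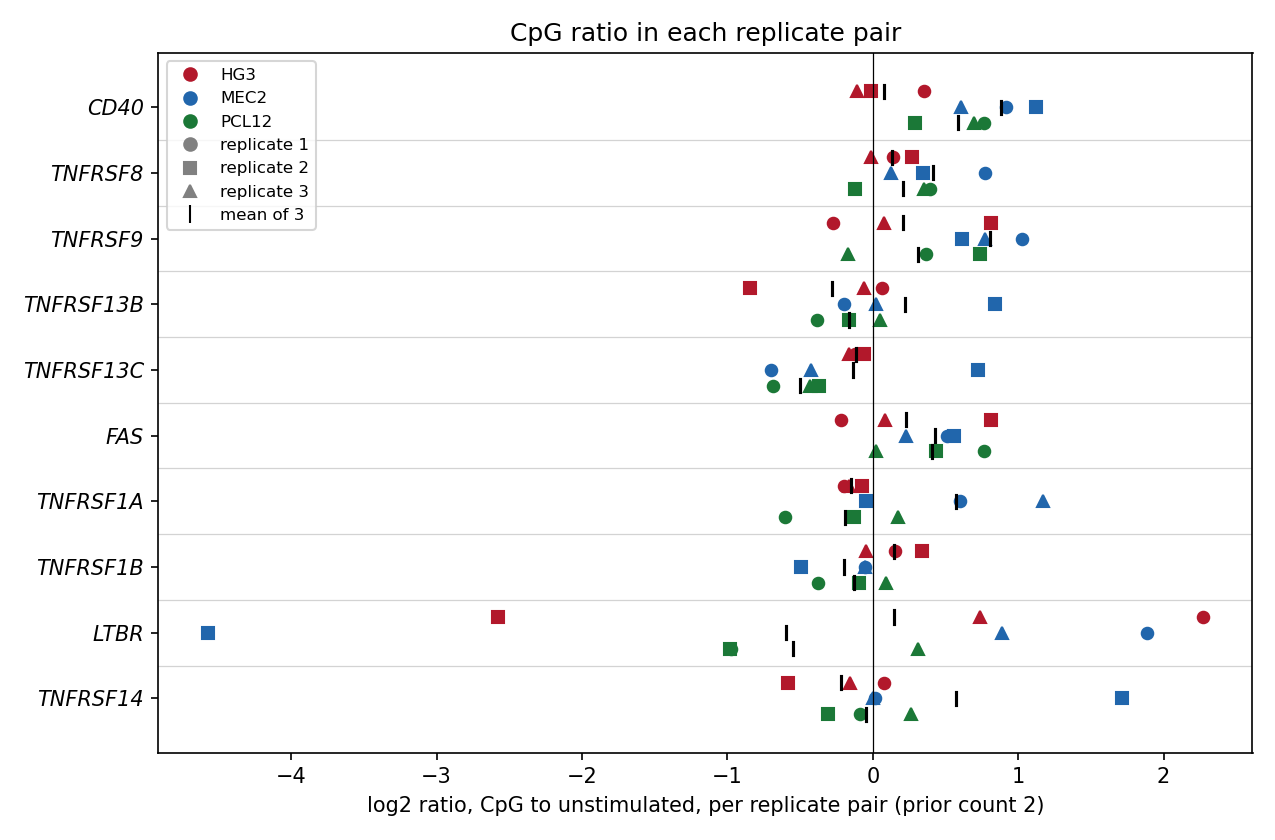
Log2 ratio of CpG to unstimulated CPM in each replicate pair (horizontal axis, prior count 2) for the 10 genes, coloured by cell line, with 1 symbol for each replicate number and a black bar for the mean of 3 pairs. CD40 lies to the right of 0 in every MEC2 and PCL12 pair, TNFRSF13C to the left of 0 in 8 of 9 pairs, and the LTBR points are spread the widest.

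Between libraries of the same group, some of the receptors varied together and others in opposite directions. After the group means had been removed, Pearson's r over the 18 libraries was 0.875 for CD40 and TNFRSF9, 0.868 for TNFRSF13C and TNFRSF14, 0.784 for CD40 and TNFRSF14 and 0.772 for TNFRSF1A and TNFRSF1B. It was -0.841 for TNFRSF13B and FAS, -0.752 for TNFRSF8 and TNFRSF1A and -0.744 for TNFRSF8 and TNFRSF13C. TNFRSF1A and TNFRSF1B had an r of -0.60 over all libraries, where the lines lie in opposite orders. The chromosomal neighbours TNFRSF8 and TNFRSF1B had -0.662 within groups, and the neighbours TNFRSF1A and LTBR 0.750. Most pairs named here were picked for their extreme values, while TNFRSF13B and TNFRSF13C, for example, had 0.032 within groups. No values of other genes are given beside them. These are descriptions: the 18 libraries share pairs, depth, the mitochondria-rich libraries and the PCL12 libraries with MEC2 transcripts, and r within groups rests on deviations of 3 libraries each.

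**Figure D4:**
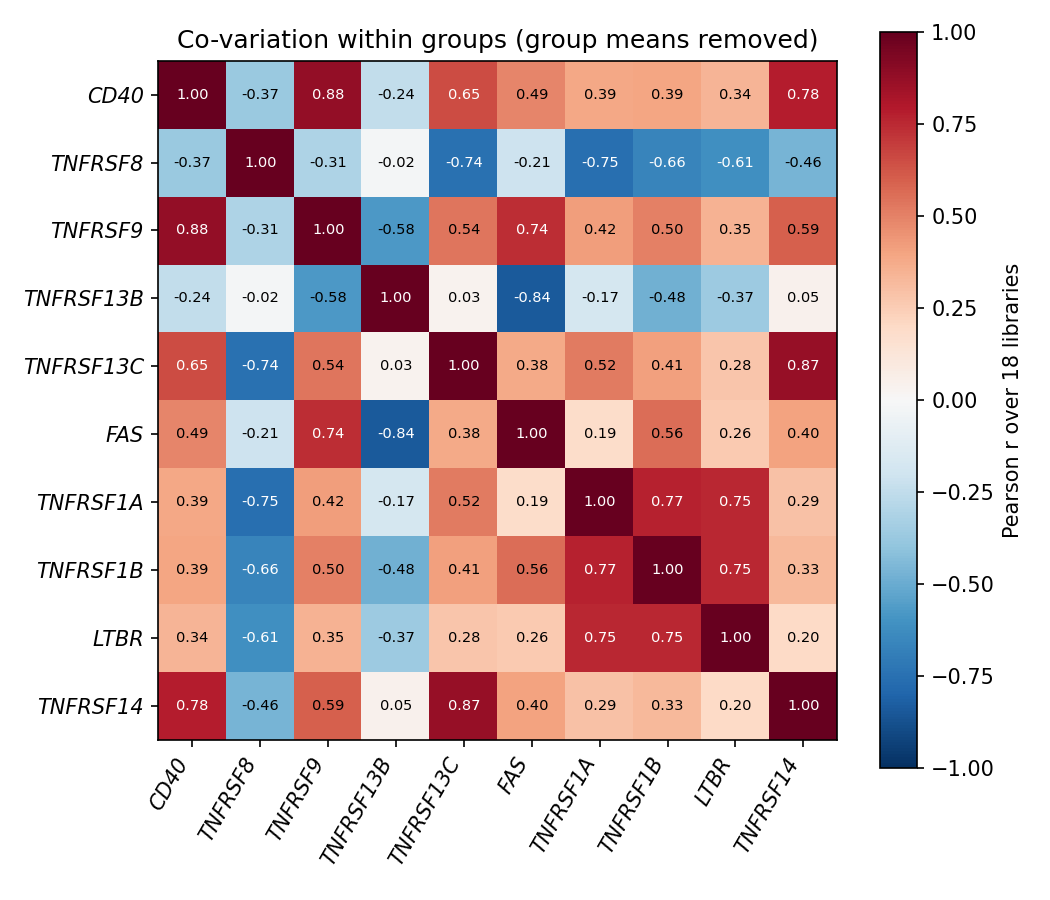
Pearson's r of log2 CPM between the 10 genes over 18 libraries after removal of the 6 group means (colour and number, from -1 in blue to 1 in red). CD40, TNFRSF9 and TNFRSF14 form red cells with each other (0.59 to 0.88), and TNFRSF8 is blue with every other gene.

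For the 3 receptors with the widest unstimulated spread, the most alike of 13991 genes (mean CPM 1 or more) over the 18 libraries were sought. Among those most like TNFRSF1A were KLK1 (Pearson's r 0.970) and SYNGR1 (0.958). Both were high in HG3, low in MEC2 and between them in PCL12. KLK1, for example, lay at 36.9 ± 9.17 CPM (SD, n = 3) in unstimulated HG3, 3.94 ± 1.67 in MEC2 and 11.8 ± 6.34 in PCL12. TNFRSF9 was most like DENND5A (0.973), NINJ1 (0.957) and IL4R (0.927), which, as it did, differed between pairs of the same line: NINJ1 ran from 19.4 to 56.9 CPM in unstimulated PCL12. For LTBR, which had few reads, those nearest included NUDT8 (0.849) and GSTM3 (0.846). These values share libraries and lines and carry no test.

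The other receptors of the superfamily were followed as a list of 19 genes. In MEC2 against HG3, 1 was higher (CD27) and 7 were lower (TNFRSF21, TNFRSF10A, TNFRSF10B, TNFRSF10C, TNFRSF10D, TNFRSF11B and EDA2R), and in PCL12 against HG3 CD27 was again the 1 higher gene and 6 were lower, those of MEC2 without TNFRSF10C. Of all tested genes, 4.81% were higher and 4.97% lower in MEC2, and 4.87% and 4.57% in PCL12. TNFRSF10A and TNFRSF10B, the death receptors for TRAIL, were among them: TNFRSF10B lay at 286, 218 and 480.3 CPM in HG3, at 102, 95.0 and 78.5 CPM in MEC2, and at 60.3, 84.5 and 64.6 CPM in PCL12. Its Log2FC was -1.84 in MEC2 (SE 0.30, adjusted p = 8.58e-05) and -2.23 in PCL12 (SE 0.30, adjusted p = 7.17e-06) by edgeR's quasi-likelihood test. HG3 was above both other lines in every library, as for FAS and TNFRSF1A. TNFRSF10A had a Log2FC of -3.00 in PCL12 (SE 0.39, adjusted p = 5.62e-06) and -1.68 in MEC2 (SE 0.37, adjusted p = 0.00301). EDA2R lay at 28.8, 11.3 and 32.6 CPM in HG3 and at most 0.428 CPM in the unstimulated libraries of the other lines. TNFRSF11B, the secreted decoy osteoprotegerin, lay at 6.46, 1.39 and 7.66 CPM in HG3 and had no read in the 6 unstimulated MEC2 and PCL12 libraries.

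Among these genes CD27, a receptor of memory B cells, was low in HG3 (26.6, 48.2 and 36.9 CPM) and high in MEC2 (155, 171.6 and 148 CPM) and PCL12 (281, 164.5 and 145.5 CPM). TNFRSF4, the OX40 receptor, was the 1 gene of the list higher in PCL12 than in MEC2 (18.8, 27.8 and 6.52 CPM against 4.10, 4.04 and 0.855 CPM, Log2FC 2.56, SE 0.63, adjusted p = 0.0320), and 0 were lower (1.53% and 0.524% of all genes). TNFRSF19 and TNFRSF11A, chosen after their values were seen, were higher in PCL12 replicates 2 and 3 than in replicate 1: TNFRSF19 was at 0.481 CPM in unstimulated replicate 1 and at 10.98 and 16.7 CPM in replicates 2 and 3, beside 28.6 to 32.9 CPM in MEC2. TNFRSF11A was likewise at 0.705 CPM in replicate 1 and 7.99 and 6.78 CPM in replicates 2 and 3, beside 96.75, 85.5 and 39.97 CPM in MEC2.

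**Figure D5:**
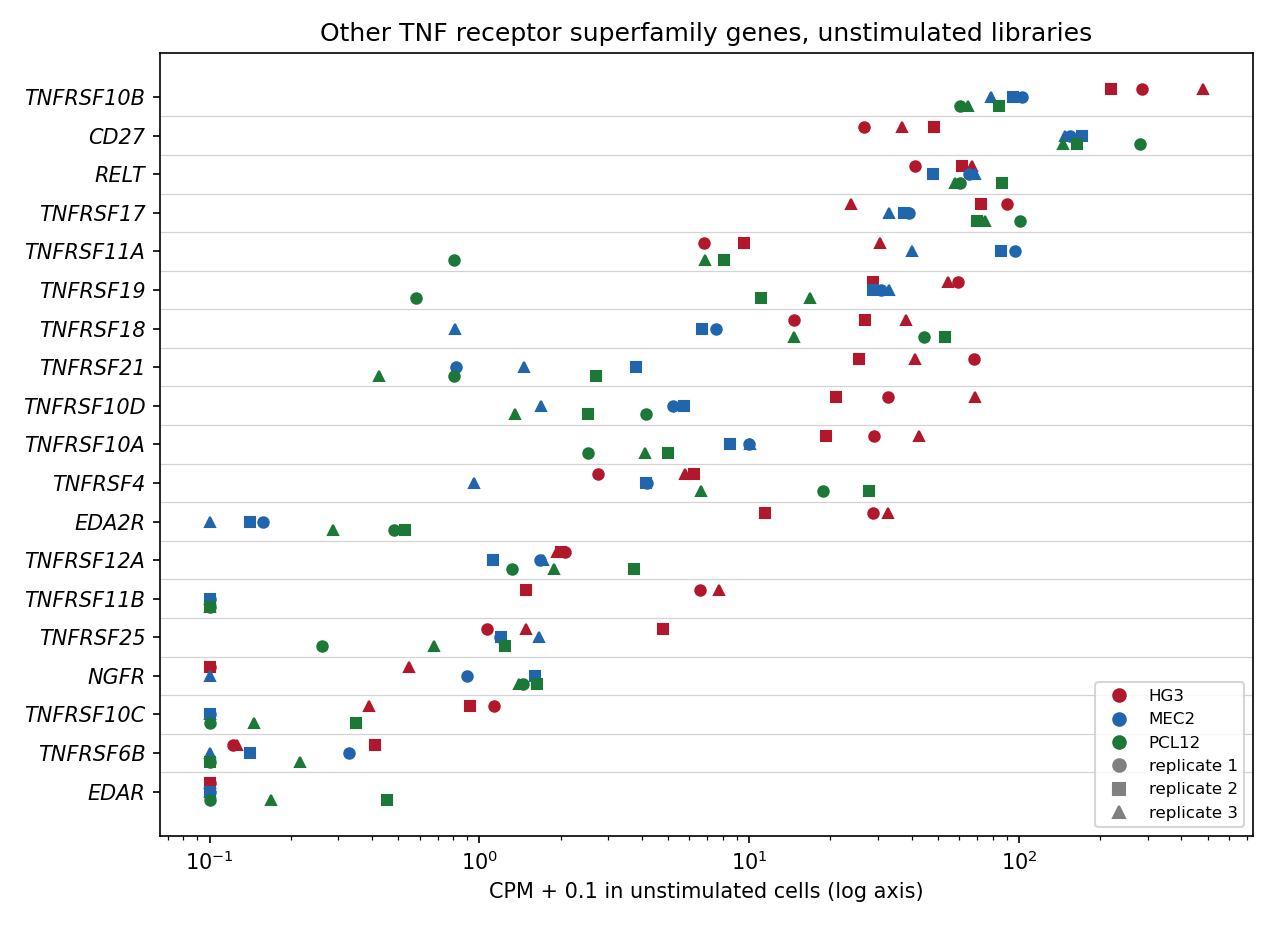
CPM plus 0.1 (horizontal log axis) of 19 other TNF receptor superfamily genes in the 9 unstimulated libraries, coloured by cell line with 1 symbol for each replicate number. TNFRSF10B, TNFRSF10D, TNFRSF21 and EDA2R are highest in every HG3 library, CD27 is lowest in HG3, and TNFRSF19 and TNFRSF11A are lower in PCL12 replicate 1 than in replicates 2 and 3.

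Of 10 ligand genes, LTB, which encodes the membrane anchor of the LTBR ligand, set HG3 apart: unstimulated HG3 libraries held 0.945, 0.877 and 0.421 CPM, MEC2 84.0, 78.5 and 39.3 CPM, and PCL12 65.4, 49.0 and 26.1 CPM. Its Log2FC was 6.497 in MEC2 (SE 0.52, adjusted p = 1.44e-08) and 5.97 in PCL12 (SE 0.51, adjusted p = 3.53e-08). TNFSF9, the ligand of TNFRSF9, was lower in MEC2 (Log2FC -1.83, SE 0.33, adjusted p = 0.000314) and in PCL12 (Log2FC -1.69, SE 0.33, adjusted p = 0.000730) than in HG3. TNF was lower in PCL12 than in HG3 and in MEC2 (Log2FC -1.54 against MEC2, SE 0.27, adjusted p = 0.00122), and FASLG passed as higher in MEC2 at no more than 1.47 CPM. In all, 2 ligands were higher and 1 lower in MEC2 than in HG3, 1 higher and 2 lower in PCL12 than in HG3, and 0 higher and 1 lower in PCL12 than in MEC2, beside the same shares of all genes (4.81% and 4.97%, 4.87% and 4.57%, 1.53% and 0.524%). CD40LG, the CD40 ligand of T cells, had at most 0.286 CPM in any library.

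Of 15 genes for adaptors and regulators of these receptors, 0 were higher and 2 lower in MEC2 than in HG3, BIRC2 (Log2FC -1.69, SE 0.28, adjusted p = 0.000128) and CFLAR (-0.99, SE 0.31, adjusted p = 0.0413), which encode a cIAP ubiquitin ligase and an inhibitor of caspase 8. Over all tested genes the shares were 4.81% higher and 4.97% lower, so that these counts are near the background. In PCL12 against HG3, CASP8 was higher (0.82, SE 0.25, adjusted p = 0.0391) and RIPK1 (-1.62, SE 0.34, adjusted p = 0.00157) and TANK (-0.98, SE 0.32, adjusted p = 0.05 after rounding, at the threshold) were lower (4.87% and 4.57% of all genes), and BIRC2 was the only 1 of the 15 higher in PCL12 than in MEC2 (1.13, SE 0.28, adjusted p = 0.0252), with 0 lower (1.53% and 0.524% of all genes). The adaptor genes TRAF1, TRAF2, TRAF3, TRAF5, TRAF6, TRADD and FADD passed in none of these comparisons.

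After CpG, 0 genes of the 3 lists passed without the block, and TNF came nearest on average (Log2FC 0.87, SE 0.16, adjusted p = 0.0531). With the replicate block, TNF rose in MEC2 (Log2FC 0.82, adjusted p = 0.0296) and PCL12 (0.89, adjusted p = 0.0424), and LTA, which encodes lymphotoxin α, in HG3 (1.11, adjusted p = 0.000908) and PCL12 (1.12, adjusted p = 0.000708), by edgeR's quasi-likelihood test. TNF and LTA were higher in all 3 pairs of each line. Of all tested genes the block called 0.135% for HG3, 0.333% for MEC2, 0.0471% for PCL12, 0.555% on average and 0.141% for the difference of MEC2 and HG3. In MEC2, TNFRSF4 (1.60, adjusted p = 0.00205) and TNFRSF18 (1.47, adjusted p = 9.25e-05) rose and TNFRSF21 (-1.78, adjusted p = 0.000473) fell with the block, and these 3 receptors also passed the test of the difference from HG3 (adjusted p 0.00479, 0.00559 and 0.0175), TNFRSF18 (0.592) and TNFRSF21 (1) no longer without the 2 pairs with a mitochondria-rich library, and TNFRSF4 (0.0512, with a difference of 2.23 beside 2.21 in all libraries) no longer without PCL12 pairs 2 and 3. TNFRSF21 was at no more than 3.715 CPM in any MEC2 library. TRAF1, an adaptor of CD40 and TNFRSF9 and an NF-κB target, rose with the block in MEC2 (0.97, adjusted p = 0.00345) and on average (0.51, adjusted p = 0.00850), as BIRC3 (0.48, adjusted p = 0.0216) and CFLAR (0.46, adjusted p = 0.0294) did on average. TNF, LTA, TNFRSF18 and TNFRSF21 passed on average as well. These comparisons share their libraries and control samples with those of CD40.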

How the data were processed

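RNA of 18 samples of 3 CLL cell lines was sequenced. The authors deposited 1 table of read counts for 56609 gene symbols, with no normalization. The submitters' processing notes name FastQC, MultiQC, Trimmomatic, STAR, featureCounts and build hg38, and versions, gene annotation, strand setting and handling of duplicate reads are not given in the sources used here. For RNA, the labels name a Promega kit and the paper a Qiagen kit, and the labels name stranded QuantSeq libraries, which count 3′ ends, while the paper names a reverse-stranded library protocol. PCR copies may have been counted, so limits cover counting error only.

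Groups came from the sample labels. Genes with at least 10 counts over the 18 libraries were kept (31872), scaled by TMM and fitted in edgeR 4.0.16 (R 4.3.3) with 6 group means and robust quasi-likelihood dispersions, which left 12 residual degrees of freedom. P values were adjusted by Benjamini and Hochberg over all tested genes, with a threshold of 0.05. Ratios of pairs used log2 CPM with a prior count of 2. The series description pairs samples by replicate number within a line. After removal of group means, same-numbered libraries correlated at 0.259, 0.212 and 0.480 for HG3, at 0.189, -0.0133 and 0.611 for MEC2, and at 0.607, 0.494 and 0.515 for PCL12 (genes averaging 1 CPM or more). Stimulated and unstimulated libraries with different numbers correlated at -0.276 to 0.00377 for HG3, -0.518 to 0.449 for MEC2 and -0.477 to 0.0162 for PCL12. In MEC2 the highest of these exceeded the same-numbered values of 0.189 and -0.0133, so its pairing was not borne out for every replicate. Alternatives were DESeq2 1.42.0, limma-voom (limma 3.58.1), other scalings and filters, the replicate block, fits of fewer libraries and each library left out, and the block without pairs that stood apart was added after seeing the data. The steps were tested on simulated counts with known changes in stimulated MEC2, which held no pair effects and no other differences between lines. The simulation thus did not test the replicate block on paired samples or the comparisons of unstimulated lines. No libraries were identical.

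The 10 genes, the 3 lists (19 other receptors, 10 ligands, 15 adaptors), the cell type markers and the tests were chosen with earlier results of these data known. Named beyond the 10 genes were NFKBIZ, genes called in the lists, up to 2 of each list and unstimulated comparison in detail, and the 3 most alike genes of 3 receptors, some of which are not reported here. The genes typical of MEC2 had at least 20 CPM in its libraries and at most 10% of that in PCL12 replicate 1.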

Additional observations from a re-analysis of the deposited data

Results flagged for a closer look

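With the replicate number as a block in edgeR's quasi-likelihood fit, the CpG change differed between MEC2 and HG3 in 45 of all tested genes (0.141%). None of the 10 receptors was among them, whereas 5 genes of the other lists were: the check gene, 3 other receptors and a stromal marker. NFKBIZ differed by a Log2FC of 1.44 (MEC2 minus HG3, adjusted p = 0.00193), TNFRSF4 by 2.21 (adjusted p = 0.00479), TNFRSF18 by 1.64 (adjusted p = 0.00559), COL1A1 by 1.58 (adjusted p = 0.00559) and TNFRSF21 by -1.88 (adjusted p = 0.0175). Without the block the adjusted p was 1 for each of them. In a fit added after seeing the data, with the block and without the 2 pairs that hold a mitochondria-rich library, NFKBIZ (1.37, adjusted p = 2.94e-07) and TNFRSF4 (1.94, adjusted p = 0.00505) passed, whereas TNFRSF18 (0.86, adjusted p = 0.592), COL1A1 (0.99, adjusted p = 0.259) and TNFRSF21 (-1.07, adjusted p = 1) did not. Without PCL12 pairs 2 and 3, TNFRSF4 was at an adjusted p of 0.0512 (2.23), and the other 4 genes passed (adjusted p 0.0147 to 0.0285).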

How the results depend on the processing

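Of the 10 receptor genes, 3 were called between unstimulated PCL12 and HG3 and 2 between PCL12 and MEC2. Without a low-count filter these became 5 and 4, in the 9 unstimulated libraries alone 1 and 0, and without PCL12 replicates 2 and 3 they were 1 and 1. The shares of all genes called were 9.44% and 2.05%, and in these 3 fits 8.94% and 3.20%, 9.18% and 1.61%, and 4.36% and 1.98%. With each library left out in turn the counts ran from 1 to 3 and from 0 to 2. The smallest counts came without PCL12 unstimulated replicate 1 (1 and 0), and the second comparison also lost calls without MEC2 unstimulated replicate 1 (0) or 2 (1), and without replicate 3 it lost TNFRSF1A and gained TNFRSF8 (2). The 3 calls of MEC2 against HG3 were 2 to 4 under the alternatives. After CpG, 0 genes were called in every fit without a replicate block, also with each library left out. With the replicate block, edgeR called 1 gene in MEC2 and 1 on average, CD40, and limma-voom with the replicate block called 1 on average and 0 in MEC2; the block changed no other call among the 10 genes. The added block without the 2 pairs with a mitochondria-rich library called 2 in MEC2, 2 in PCL12 and 3 on average, and the block without PCL12 pairs 2 and 3 called 0. No fitted difference that was called changed its direction. A prior count of 0.5 left the counts of genes with 3 pairs in 1 direction as they were. The cause was not tested where fits of all libraries differ, and fits of fewer libraries also differ in precision, in either direction. Without the 2 pairs with a mitochondria-rich library, the block called 1.35% of all genes on average, against 0.555% in all libraries. Few reads limit LTBR, for which the count of 0 in unstimulated MEC2 replicate 3 allows up to 0.0855 CPM.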
